A study of Mus musculus with 9 samples.

Results

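The genes described here carry glucose into the cell, commit it to glycolysis and send the lactate out. They are Slc2a1, Hk1, Hk2, Hk3, Pfkl, Pfkp, Pfkfb3, Ldha, Slc16a3 and Pdk1, listed by name, and they make up 10 of the 18193 genes measured. Each gene was read from the probe set that carried its symbol alone and had the highest mean over all 9 arrays, and its other probe sets were kept as a check. The cells were bone marrow derived macrophages of C57BL6 mice aged 6 to 12 weeks, used on day 6 in culture. They received lipopolysaccharide (LPS, a bacterial wall component that primes inflammatory genes) at 33 ng/mL for 3 h and then an organotin or sterile saline for 6 h. One group received TMT (trimethyltin, given as TMT OH, 1.25 µM), another TET (triethyltin, given as TET Br, 10 µM) and the third saline, with 3 biological replicates and 3 arrays each. All groups were LPS-primed, so the values compare organotin with saline in primed cells, and no unprimed group was analysed here. TMT carries methyl groups and TET ethyl groups on tin, and their doses differed, so a difference between them belongs to compound and dose together.

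Macrophages primed with LPS are known to rely on glycolysis, taking up glucose and releasing lactate. Glucose enters through the facilitative transporter GLUT1, is trapped by hexokinases and is committed to glycolysis by phosphofructokinase, whose activity rises with fructose bisphosphate made by PFKFB enzymes. Lactate dehydrogenase turns pyruvate into lactate, monocarboxylate transporters export it, and pyruvate dehydrogenase kinases inhibit the pyruvate dehydrogenase of the mitochondria. Many of these genes are known targets of hypoxia-inducible factor, and Myc is a known regulator of several.

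Under TMT, 5 of the 10 genes rose against saline, 1 fell and 4 did not pass the test, where 27.8% of all genes passed. Under TET, 1 rose, 6 fell and 3 did not pass, where 50.8% of all genes passed. Slc2a1, a glucose uptake gene, and Slc16a3, a lactate export gene, rose under TMT and fell under TET, but the small fall of Slc2a1 was lost in 10 of 21 alternatives. Other transporter genes of the pathway differed: Slc2a3 fell under TMT without passing under TET, and Slc16a1 rose under both. These sizes depended on the probe set. With another probe set Slc16a1 gave 0.01 under TET and did not pass. Slc2a3 gave -0.32 under TMT without probe sets that may bind several transcripts. Values are log2 signals, differences are log2 differences of group means with the standard error (SE) of the linear model, and a gene passed at an adjusted p under 0.05 over all 18193 genes (limma).

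The promoters of 4 of the genes show sequence near the start of the genes on which the results turn. Slc2a1 and Slc16a3 are shown because their calls were opposite under TMT and TET, Pdk1 because it had the largest fall of the 10 under TET, and Pfkp because it was the one gene of the 10 that was higher under TET than under TMT. Each window runs from 250 bases before to 50 after a start in RefSeq (GRCm38.p6). Capitals mark ACGTG and GCGTG, the cores of the hypoxia response element, or their reverse complements. The Slc2a1 window is chr4:119108495-119108794 and that of Slc16a3 is chr11:120948817-120949116, both on the plus strand. That of Pdk1 is chr2:71872974-71873273 on the plus strand, and that of Pfkp is chr13:6648722-6649021 on the minus strand. Pdk1 has another window, chr2:71874654-71874953 on the plus strand, which held no core and is not shown.
Slc2a1: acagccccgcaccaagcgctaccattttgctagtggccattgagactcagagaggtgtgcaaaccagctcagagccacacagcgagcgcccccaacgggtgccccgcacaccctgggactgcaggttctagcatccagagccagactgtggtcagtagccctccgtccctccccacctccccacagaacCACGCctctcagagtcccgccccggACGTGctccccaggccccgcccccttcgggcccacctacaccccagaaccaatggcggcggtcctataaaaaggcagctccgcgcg
Slc16a3: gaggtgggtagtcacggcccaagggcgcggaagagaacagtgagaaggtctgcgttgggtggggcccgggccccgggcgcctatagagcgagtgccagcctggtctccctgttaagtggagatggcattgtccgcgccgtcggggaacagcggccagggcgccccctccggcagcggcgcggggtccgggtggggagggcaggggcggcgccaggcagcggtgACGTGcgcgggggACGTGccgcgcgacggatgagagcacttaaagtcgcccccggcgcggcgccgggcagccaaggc
Pdk1: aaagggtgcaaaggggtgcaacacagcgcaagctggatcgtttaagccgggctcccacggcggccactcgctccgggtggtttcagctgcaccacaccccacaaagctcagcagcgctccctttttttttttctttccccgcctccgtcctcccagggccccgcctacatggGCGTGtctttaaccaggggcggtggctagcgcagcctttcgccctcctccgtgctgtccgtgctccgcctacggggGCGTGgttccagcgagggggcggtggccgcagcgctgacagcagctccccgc
Pfkp: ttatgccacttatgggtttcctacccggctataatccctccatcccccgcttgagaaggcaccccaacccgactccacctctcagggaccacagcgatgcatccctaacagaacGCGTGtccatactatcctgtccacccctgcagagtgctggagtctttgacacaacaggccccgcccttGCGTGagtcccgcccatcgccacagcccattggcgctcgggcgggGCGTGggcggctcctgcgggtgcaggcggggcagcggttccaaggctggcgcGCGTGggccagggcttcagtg
All 10 genes had a window in RefSeq, 14 windows in all, and 12 of the 14 held at least 1 core on either strand. Every gene had a core in at least 1 of its windows, and Hk1, Pfkfb3, Ldha and Pdk1 had 2 windows each. The share of all genes with a core in any window was not computed. Over 32851 windows of the same length, 43.8% held a core, 19.6% the ACGTG form and 32.4% the GCGTG form, against 8 of the 14 windows for each form. CACGTG, the E-box bound by Myc, holds an ACGTG on both strands and was found in 2 of the 14 windows, those of Ldha and Pfkfb3, against 7.15% of all windows. The Pfkp window held 4 GCGTG cores. These are matches of letters, and binding was not measured.

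The arrays fell into their groups. Correlations over probe sets were 0.997 within saline, 0.993 to 0.998 within TMT, 0.986 to 0.989 within TET and 0.943 to 0.978 between groups. Signals of the TET arrays were more compressed, with an interquartile range of 3.45 to 3.55, against 3.78 to 3.88 in the other arrays. Genes at or above the median mean signal of 6.82, which include all 10 genes described here, had a median difference of -0.19 between TET and saline, against 0.03 between TMT and saline. This shift lies beside every TET result below. Calls after the arrays were rescaled are given with those results, but how much of each difference the shift makes up was not tested. All 11 measured macrophage markers lay above the median gene in every group, while T cell, B cell, erythroid, dendritic and mast cell markers all lay below it. Of 5 fibroblast and stromal markers, 2 lay above it under TMT, 3 under TET and 2 in saline. No label ties a replicate to a mouse of its own, and p-values therefore rest on the spread between samples alone. The number of arrays limits the precision, no value marks the background, with 3 arrays a group the exact permutation test has 0.1 as its smallest p, and fewer cells and less RNA per cell cannot be told apart.

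**Figure D1:**
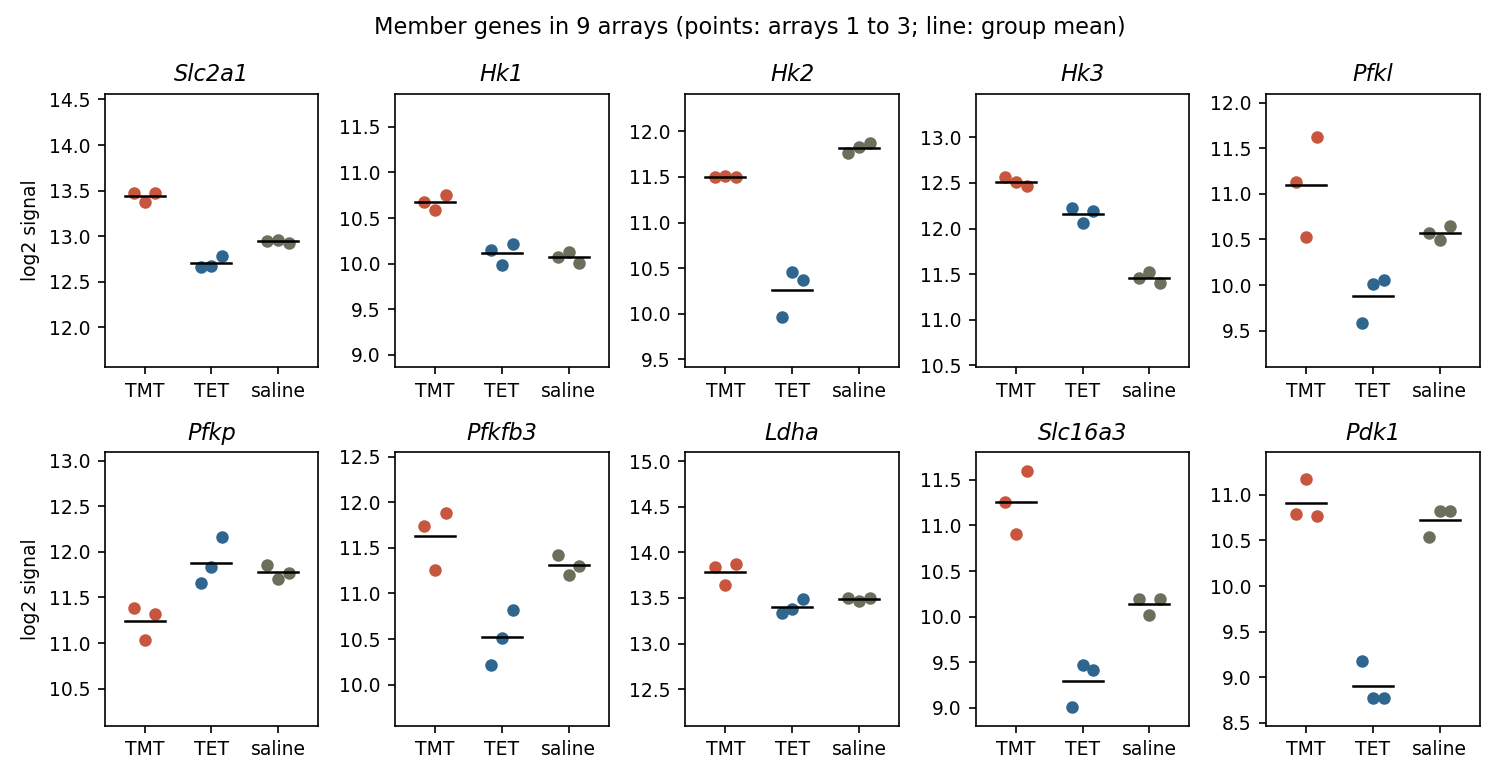
Log2 signal of each gene (vertical axis, log2 units, 3 units in each panel) in the 3 TMT, 3 TET and 3 saline arrays, with points for arrays and bars for group means. Slc16a3 and Slc2a1 lay highest under TMT and lowest under TET, and Pdk1 and Hk2 lay lowest under TET.

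Slc2a1, which encodes GLUT1, gave log2 signals of 13.47, 13.38 and 13.47 in the TMT arrays, 12.66, 12.67 and 12.78 in the TET arrays and 12.95, 12.96 and 12.93 in the saline arrays (replicates 1 to 3, as in all such lists). The groups did not overlap, with TMT highest and TET lowest, at 13.44 ± 0.06, 12.70 ± 0.06 and 12.95 ± 0.01 for TMT, TET and saline (mean ± SD, n = 3 each). Slc2a1 rose 1.41-fold under TMT (0.50, SE 0.08, adjusted p = 0.00093) and fell 1.18-fold under TET (-0.24, SE 0.08, adjusted p = 0.028). Its 3 probe sets gave 0.44 to 0.50 for TMT and -0.44 to -0.15 for TET. The rise was measured alike by all 3, whereas the fall under TET was small. It no longer passed after quantile normalization (-0.19, adjusted p = 0.061), after cyclic loess (-0.17, adjusted p = 0.10), or without TET replicate 1 or 2 (adjusted p = 0.061 for each). Nor did it pass without saline replicate 1, 2 or 3 (adjusted p = 0.076, 0.080 and 0.067).

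The hexokinases trap glucose in the cell by phosphorylating it, and the 3 genes gave 3 different patterns. Hk1, the broadly expressed form, gave 10.68, 10.59 and 10.75 under TMT, 10.15, 9.98 and 10.21 under TET, and 10.07, 10.13 and 10.01 in saline. Every TMT array lay above all others, and the TET and saline arrays overlapped. Hk1 rose 1.52-fold under TMT (0.60, SE 0.09, adjusted p = 0.00069), and its difference was 0.04 under TET (95% interval -0.17 to 0.25, adjusted p = 0.73). The TMT value rested on the brighter of 2 probe sets: the other gave 0.06 (adjusted p = 0.92), and their mean gave 0.33 (adjusted p = 0.11).

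Hk2, the hexokinase that is induced in activated and growing cells, gave 11.50, 11.51 and 11.50 under TMT, 9.96, 10.46 and 10.37 under TET, and 11.76, 11.83 and 11.87 in saline. No groups overlapped, saline was highest, and the TET arrays stood more than 1 log2 unit below the saline arrays. Hk2 fell 2.94-fold under TET (-1.56, SE 0.12, adjusted p = 4.2e-06) and was called in every alternative run. Under TMT the difference was -0.32 (95% interval -0.59 to -0.04, adjusted p = 0.088). That call depended on the spread assumed: it passed with the 6 arrays of TMT and saline alone (adjusted p = 0.0078), without TET replicate 1 (adjusted p = 0.011) and with array weights (adjusted p = 0.0014).

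Hk3, a hexokinase found mainly in myeloid cells, gave 12.56, 12.51 and 12.47 under TMT, 12.23, 12.06 and 12.19 under TET, and 11.46, 11.52 and 11.40 in saline. Both organotin groups lay above every saline array, with TMT above TET. It rose 2.07-fold under TMT (1.05, SE 0.09, adjusted p = 8.7e-06) and 1.63-fold under TET (0.70, SE 0.09, adjusted p = 8.1e-05). Hk3 was the gene of the 10 that rose under both. The brighter of its 2 probe sets has a name that marks possible binding of related transcripts, and the other gave 1.01 for TMT and 0.74 for TET. Neutrophils also express Hk3. The summed log2 signal of 10 measured neutrophil markers was 66.8 to 68.5 in TMT arrays, 66.0 to 67.7 in TET arrays and 70.0 to 71.2 in saline arrays, and their part in the Hk3 values was not tested. Of those markers, 4 lay above the median gene under TMT, 4 under TET and 5 in saline. Single markers went different ways. S100a9 (-1.70 under TMT and -1.66 under TET) and Ngp (-1.42 and -1.30) fell under both. Mmp8 rose under TMT (0.55, adjusted p = 0.023), where S100a8 gave 0.45 (adjusted p = 0.052), and under TET they gave -0.32 and -0.33 without passing. The granule genes Elane (4.97, 5.14 and 4.91 in TMT, TET and saline) and Mpo (5.35, 5.92 and 5.95) lay below the median gene. Camp (7.96, 7.31 and 7.81) and Mmp8 (8.41, 7.54 and 7.86) lay above it in every group. Camp gave 0.15 under TMT without passing and fell under TET (-0.50, adjusted p = 0.00065).

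Pfkl and Pfkp encode subunits of phosphofructokinase. Pfkl, the liver-type subunit, gave 11.13, 10.53 and 11.62 under TMT, 9.58, 10.01 and 10.06 under TET, and 10.57, 10.49 and 10.65 in saline. TMT replicate 2 lay within the saline range, the other TMT arrays lay above it, and every TET array lay below. Pfkl fell 1.61-fold under TET (-0.68, SE 0.23, adjusted p = 0.033), and its TMT difference was 0.53 (95% interval 0.00 to 1.05, adjusted p = 0.14). Without TMT replicate 2 the TMT difference was 0.81 and passed (adjusted p = 0.0095). The TET call was lost without TET replicate 1 (-0.53, adjusted p = 0.11), without saline replicate 1, 2 or 3 (adjusted p = 0.077, 0.064 and 0.090), after quantile normalization (-0.57, adjusted p = 0.071) and after cyclic loess (-0.46, adjusted p = 0.14). The 3 probe sets of Pfkl ran from -1.58 to -0.68 under TET and from 0.36 to 0.64 under TMT.

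Pfkp, the platelet-type subunit, gave 11.39, 11.03 and 11.32 under TMT, 11.66, 11.83 and 12.16 under TET, and 11.86, 11.70 and 11.77 in saline. All TMT arrays lay below the others, and TET and saline overlapped. It fell 1.44-fold under TMT (-0.53, SE 0.14, adjusted p = 0.017), the one gene of the 10 that did so. The difference under TET was 0.10 (95% interval -0.21 to 0.42, adjusted p = 0.56). Its 3 probe sets gave -1.25 to -0.53 for TMT and -0.19 to 0.43 for TET. The TMT call was lost without TMT replicate 2 (-0.42, adjusted p = 0.063) and without saline replicate 1 or 3 (adjusted p = 0.069 and 0.053).

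Pfkfb3, whose enzyme makes the fructose bisphosphate that activates phosphofructokinase, gave 11.74, 11.26 and 11.88 under TMT, 10.22, 10.51 and 10.82 under TET, and 11.42, 11.20 and 11.30 in saline. The TET arrays lay below all others, and TMT replicate 2 lay inside the saline range. Pfkfb3 fell 1.73-fold under TET (-0.79, SE 0.18, adjusted p = 0.0049), and its TMT difference was 0.32 (95% interval -0.08 to 0.73, adjusted p = 0.25). Its 2 probe sets agreed on TMT (0.32 and 0.34) and differed in size on TET (-0.79 and -0.15). With the dimmer probe set the TET call was lost (adjusted p = 0.40).

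Ldha, which encodes the lactate dehydrogenase subunit that favours lactate, gave 13.84, 13.64 and 13.87 under TMT, 13.33, 13.38 and 13.49 under TET, and 13.50, 13.47 and 13.50 in saline. The TMT arrays lay above all others, by little, and TET and saline overlapped. Ldha rose 1.23-fold under TMT (0.30, SE 0.09, adjusted p = 0.036), and its difference was -0.09 under TET (95% interval -0.29 to 0.12, adjusted p = 0.45). The TMT call was lost without TMT replicate 1 or 3 (0.27 and 0.25, adjusted p = 0.13 for each), without saline replicate 1, 2 or 3 (adjusted p = 0.093, 0.11 and 0.094) and with array medians centred (adjusted p = 0.061).

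Slc16a3, which encodes the lactate exporter MCT4, gave 11.26, 10.91 and 11.60 under TMT, 9.01, 9.47 and 9.42 under TET, and 10.19, 10.02 and 10.19 in saline. The 3 groups were well apart, TMT above saline and TET below it, at 11.26 ± 0.35, 9.30 ± 0.25 and 10.13 ± 0.09 for TMT, TET and saline (mean ± SD, n = 3 each). Slc16a3 rose 2.18-fold under TMT (1.12, SE 0.18, adjusted p = 0.00075) and fell 1.78-fold under TET (-0.83, SE 0.18, adjusted p = 0.0030). Both calls held in every alternative run. Between the organotins the level was 3.88-fold lower under TET (-1.96, SE 0.18, adjusted p = 9.2e-06).

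Pdk1 encodes a kinase that inhibits pyruvate dehydrogenase. Pdk1 gave 10.79, 11.17 and 10.77 under TMT, 9.18, 8.77 and 8.77 under TET, and 10.54, 10.82 and 10.82 in saline. TMT and saline overlapped, and every TET array lay more than 1 log2 unit below them, with means of 10.91 ± 0.23, 8.90 ± 0.24 and 10.72 ± 0.16 for TMT, TET and saline (SD, n = 3 each). Pdk1 fell 3.53-fold under TET (-1.82, SE 0.15, adjusted p = 6.2e-06), and its 4 probe sets gave -2.12 to -1.53. The TMT difference was 0.18 (95% interval -0.16 to 0.52, adjusted p = 0.46), and its probe sets, from -0.25 to 0.18, differed in sign.

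**Figure D2:**
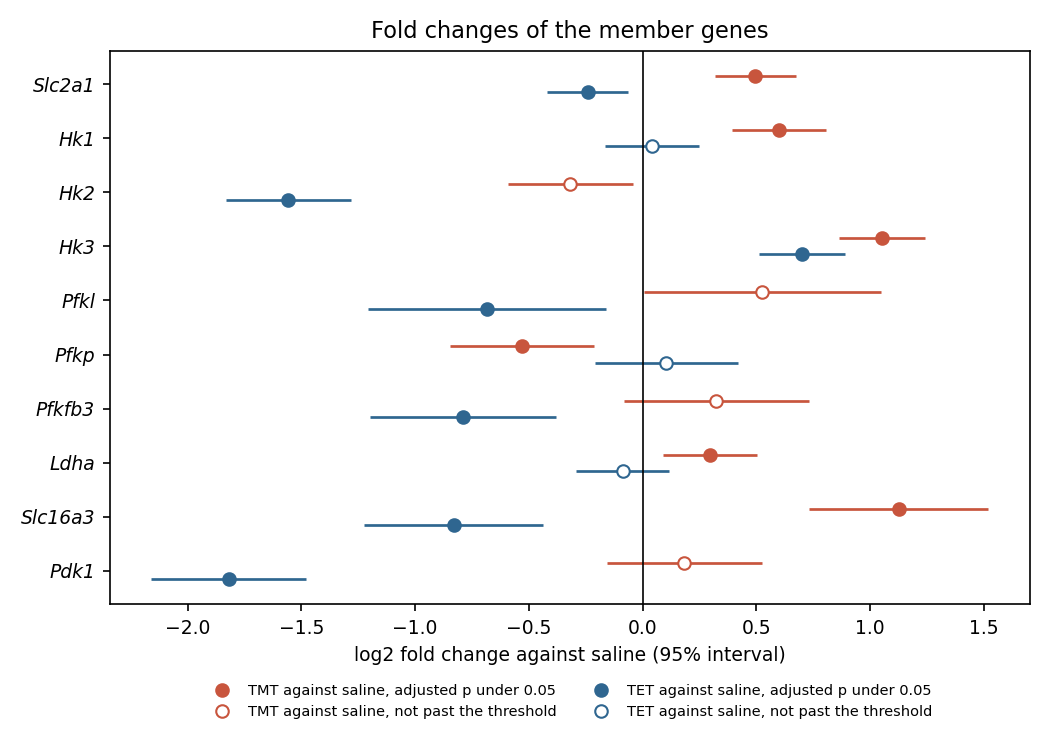
Log2 difference of each gene (horizontal axis, log2 units) under TMT and under TET against saline, with 95% intervals of the linear model. Slc16a3 and Slc2a1 lay on opposite sides of 0 under TMT and TET, and Hk3 lay above 0 under both.

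Set against all genes, the counts read as follows. Under TMT, 6 of the 10 passed, against the 27.8% of all genes (14.3% higher and 13.4% lower). Among genes at or above the median mean signal, 46.2% passed, 24.1% higher and 22.1% lower. The median difference of the 10 was 0.41, against 0.01 over all genes and 0.03 over the brighter genes. TMT and saline arrays lay fully apart for 7 of the 10, against 44.7% of all genes. Changes of 2-fold or more that passed were those of Hk3 and Slc16a3, 2 of the 10, against 7.85% of all genes.

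Under TET, 50.8% of all genes passed (27.4% higher and 23.4% lower), and 64.9% of the brighter genes did (23.6% higher and 41.3% lower), against 7 of the 10. The count of calls is thus near that of the brighter genes, while 6 of the 7 calls were lower. The median of the 10 was -0.46, against 0.09 over all genes and -0.19 over the brighter genes. The arrays did not overlap for 7 of the 10, against 58.7% of all genes. Hk2 and Pdk1, 2 of the 10, changed 2-fold or more and passed, against 13.8% of all genes. The split of calls over all genes turned with the scaling: 4982 genes rose and 4265 fell as deposited, and 3419 rose and 5008 fell once array medians were centred. Centring moved the median of all genes by more than 0.1, to -0.02, and quantile normalization took it to -0.03. After centring the same 7 of the 10 genes passed, 1 upward (Hk3, 0.59) and 6 downward, with Slc16a3 at -0.94 and Pdk1 at -1.93. Quantile normalization left 1 up and 4 down, and cyclic loess left 2 up and 4 down, the added rise being Hk1 (0.28, adjusted p = 0.025).

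All 10 genes differed between TET and TMT, 9 lower and 1, Pfkp, higher under TET, where 51.8% of all genes passed (28.1% higher and 23.7% lower). Over the brighter genes 66.6% passed, 25.1% higher and 41.5% lower. The median of the 10 was -0.93, against 0.11 over all genes and -0.18 over the brighter genes. The arrays of TET and TMT lay fully apart for all 10 genes, against 57% of all genes. Hk2, Pfkl, Pfkfb3, Slc16a3 and Pdk1, 5 of the 10, differed 2-fold or more and passed, against 15.5% of all genes. Over all genes 5115 were higher and 4310 lower as deposited, against 3782 and 4847 with medians centred. The largest of these 10 differences were those of Pdk1 (4.01-fold, adjusted p = 2.9e-06), Slc16a3, Hk2 (-1.24, 2.36-fold) and Pfkl (-1.21, 2.32-fold). Pfkp was 1.55-fold higher under TET (0.64, SE 0.14, adjusted p = 0.0038). The smallest were those of Hk3 (-0.35, adjusted p = 0.0061) and Ldha (-0.38, adjusted p = 0.0058). The Hk3 difference no longer passed after cyclic loess (adjusted p = 0.052) or with its other probe set (-0.27, adjusted p = 0.21). Nor did that of Hk1 with its other probe set (-0.27, adjusted p = 0.38).

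The order of the group means divided the genes. It was TMT, saline, TET from high to low for 6 of the 10 (Slc2a1, Pfkl, Pfkfb3, Ldha, Slc16a3 and Pdk1). Neighbours in that order that did not pass were TMT and saline for Pfkl, Pfkfb3 and Pdk1, and saline and TET for Ldha. Hk1 and Hk3 ran TMT, TET, saline, with TET and saline not separated for Hk1. Hk2 ran saline, TMT, TET, with saline and TMT not separated, and Pfkp ran TET, saline, TMT, with TET and saline not separated. The organotin comparisons share the 3 saline arrays.

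Within groups, single arrays lay lowest or highest for several of the genes. TMT replicate 2 was the lowest TMT array for 7 of the 10 (Slc2a1, Hk1, Pfkl, Pfkp, Pfkfb3, Ldha and Slc16a3). TET replicate 1 was the lowest TET array for 7 (Slc2a1, Hk2, Pfkl, Pfkp, Pfkfb3, Ldha and Slc16a3). TMT replicate 3 was the highest TMT array for 6, and TET replicate 3 the highest TET array for 6. The shares over all genes were not computed, and these genes are not independent of one another. Pfkl and Pfkfb3 had nearly the same profile, with a root mean square difference of 0.16 over the 9 arrays after each gene was centred on its mean. This difference depends on the size of the changes as well as their shape. By it, the nearest profiles among the 10 were those of Slc2a1 and Hk1 (0.13), Hk1 and Ldha (0.14) and Slc2a1 and Ldha (0.15). The farthest were those of Pfkp and Pdk1 (1.16). By correlation over the 9 arrays, Slc2a1 and Slc16a3 were the most alike of the 10 (0.98), against 0.91 for Slc2a1 and Hk1. Among all genes, Slc2a1 was nearest to Timm10b (0.03) and Il10rb (0.04), Slc16a3 to Slc31a1 (0.12) and Tnfrsf14 (0.13), and Pdk1 to Tmem164 (0.10) and Slc43a2 (0.14). Hk1 was nearest to Pms2 and Surf1 (0.08 each), Hk2 to Nol9 (0.08) and Ei24 (0.11), Hk3 to Gzf1 (0.06) and Fam20c (0.07), and Pfkl to Smarcc2 (0.12) and Slc48a1 (0.15). Pfkp was nearest to Spata5 and Oxct1 (0.09 each), Pfkfb3 to Slc48a1 (0.07) and Manf (0.08), and Ldha to Mbd2 and Gbp2 (0.05 each). These likenesses are descriptions over 9 arrays that share groups and processing.

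**Figure D3:**
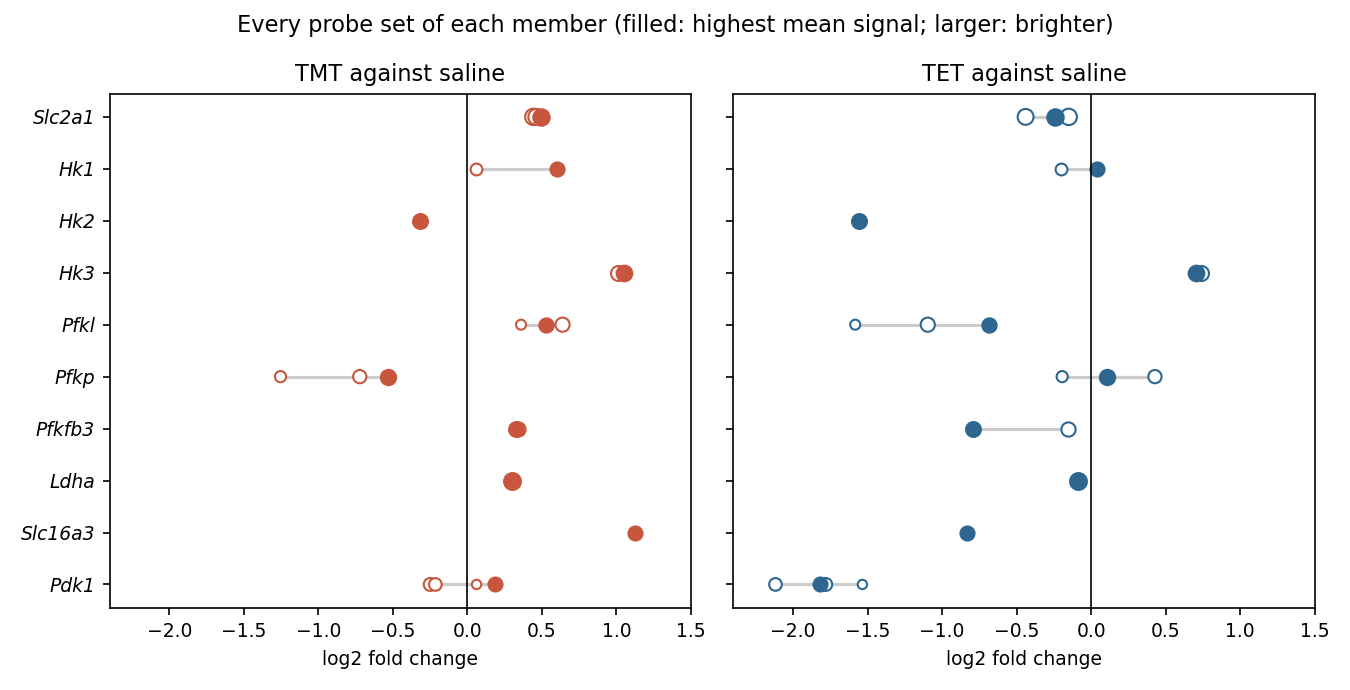
Log2 difference for TMT and for TET against saline (horizontal axis, log2 units) of every probe set of each gene, with the brightest marked. The 4 Pdk1 probe sets all lay below 0 under TET, and the 2 Hk1 probe sets lay apart under TMT, at 0.60 and 0.06.

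The rest of the pathway was read from lists of 81 genes, of which 73 were measured. Under TMT 18 rose, 11 fell and 44 did not pass, with a median of 0.13. Under TET 14 rose, 27 fell and 32 did not pass, with a median of -0.11. Those called were 39.7% of the 73 under TMT, against 27.8% of all genes and 46.2% of the brighter genes, and 56.2% under TET, against 50.8% and 64.9%. No test set these genes or any list apart from the rest.

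Among 5 other glucose transporters, 2 fell under TMT, and 1 rose and 2 fell under TET (40% and 60% called). Slc2a3, a high-affinity transporter gene, gave 5.62, 5.51 and 4.97 under TMT, 7.08, 7.08 and 8.20 under TET, and 7.44, 7.33 and 7.34 in saline. The TMT arrays lay far below the others, and TET and saline overlapped. Slc2a3 fell 4.02-fold under TMT (-2.01, SE 0.28, adjusted p = 0.00034), and its TET difference was 0.08 (adjusted p = 0.82). The size of the Slc2a3 fall depended on the probe set, at -1.12 as a mean over probe sets and -0.32 without those that may bind several transcripts (adjusted p = 0.047). Slc2a8, an intracellular transporter gene, fell under both (-1.05 and -0.84), and Slc2a9, which encodes a urate transporter, fell under TET (-1.30, adjusted p = 7.6e-05) with a TMT difference of 0.08. With another probe set the Slc2a9 value for TET was -0.03 (adjusted p = 0.86). Slc2a4, dim in all groups at 5.73 under TMT, 6.02 under TET and 5.56 in saline, rose under TET (0.46, adjusted p = 0.028). That call was lost under each scaling alternative and without saline replicate 1 or 3 (adjusted p = 0.089 and 0.071). Slc2a6, at 12.38 under TMT, 11.90 under TET and 12.26 in saline, was lower under TET than under TMT (-0.48, adjusted p = 0.040). The Slc2a6 call was lost in 11 of 21 alternatives.

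Of 16 other glycolytic enzymes, 2 rose and 3 fell under TMT, and 3 fell under TET (31.2% and 18.8% called). Pgm1, a phosphoglucomutase family gene, rose 2.47-fold under TMT (1.31, SE 0.15, adjusted p = 8.0e-05; 0.70 with its next probe set), while Galm, which interconverts the anomers of sugars, fell 3.35-fold (-1.74, SE 0.17, adjusted p = 3.0e-05). Pgm2, of the same family, fell under both (-0.86 and -0.65), and Adpgk and Bpgm fell under TET (-0.69 and -0.43). Bpgm no longer passed after cyclic loess (-0.23, adjusted p = 0.095), and its next probe set gave -1.28. The following 6 enzymes were chosen after their values were seen, and Gapdh and Eno1 were not analysed here. Tpi1, triosephosphate isomerase, rose under TMT (0.43, adjusted p = 0.0019), and Aldoc, a minor aldolase, fell (-0.38, adjusted p = 0.044). The Aldoc call was lost without TMT replicate 1 or 2, TET replicate 2 or any 1 of the saline replicates (adjusted p = 0.050 to 0.16). Under TET, Tpi1 gave -0.03 and Aldoc -0.08, and neither passed. Other readings did pass: the mean over probe sets gave -0.26 for Tpi1 (adjusted p = 0.046) and -0.26 for Aldoc (adjusted p = 0.022), and the next probe set of Aldoc gave -0.44 (adjusted p = 0.016). Aldoa, Pgk1, Pgam1 and Pkm, the main aldolase, phosphoglycerate kinase, phosphoglycerate mutase and pyruvate kinase genes, gave 0.08, 0.15, 0.29 and 0.22 under TMT and did not pass. Their TET differences were -0.04, -0.07, -0.22 and -0.03, and none passed. Without TMT replicate 2, Pgam1 and Pkm passed under TMT (0.44 and 0.35, adjusted p = 0.038 and 0.031).

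Of 5 other enzymes of the fructose bisphosphates, 1 rose under TMT, and 1 rose and 2 fell under TET (20% and 60% called). Pfkfb4, a relative of Pfkfb3, rose under TMT (0.51, adjusted p = 0.014) and fell under TET (-0.52, adjusted p = 0.0081). The TMT call was lost without TMT replicate 1 or 3 (adjusted p = 0.063 and 0.056) or saline replicate 3 (adjusted p = 0.064). Tigar, whose enzyme removes the activating fructose bisphosphate, fell 2.11-fold under TET (-1.08, SE 0.14, adjusted p = 0.00015), with a TMT difference of 0.13. Pfkfb2, another relative, rose under TET (0.44, adjusted p = 0.049). It did not pass under any of the 3 scaling alternatives, nor without TMT replicate 1 or 3, TET replicate 2 or 3, or saline replicate 1 or 2 (adjusted p = 0.054 to 0.18).

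Among 8 other genes of lactate dehydrogenation and monocarboxylate transport, 2 rose and 2 fell under TMT, and 1 rose and 2 fell under TET (50% and 37.5% called). Slc16a1, which encodes the transporter MCT1, gave 10.86, 10.76 and 10.96 under TMT, 10.38, 10.57 and 11.00 under TET, and 9.98, 9.75 and 9.77 in saline. All 6 organotin arrays lay above saline. It rose 2.03-fold under TMT (1.02, SE 0.15, adjusted p = 0.00049) and 1.76-fold under TET (0.82, SE 0.15, adjusted p = 0.0012), so under TET the MCT1 and MCT4 genes moved in opposite directions. With another probe set of Slc16a1 the TET difference was 0.01 (adjusted p = 0.97). Slc16a7, which encodes MCT2, fell under both (-1.19 and -1.16). Emb, which encodes a partner of these transporters, rose under TMT (0.68, adjusted p = 0.00049), and its TET difference was -0.02. Bsg, which encodes the partner of MCT1 and MCT4, gave 0.21 under TMT and -0.40 under TET and passed in neither. Ldhd, a lactate dehydrogenase gene of the mitochondria, fell under both (-0.62 and -0.90), though its next probe set gave -0.21 for TET (adjusted p = 0.42).

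Of 12 genes of mitochondrial pyruvate entry and the pyruvate dehydrogenase complex, 1 rose and 1 fell under TMT (16.7% called). Under TET, 2 rose and 6 fell, with a median of -0.61 (66.7% called). Pdk3, a relative of Pdk1, gave 9.02, 8.66 and 8.80 under TMT, 7.55, 7.56 and 7.31 under TET, and 8.32, 8.40 and 8.28 in saline. The groups did not overlap. Pdk3 rose under TMT (0.49, adjusted p = 0.0082) and fell 1.82-fold under TET (-0.86, adjusted p = 0.00015). Pdhb, a subunit of pyruvate dehydrogenase itself, rose 2.39-fold under TET (1.25, SE 0.12, adjusted p = 1.7e-05), and its next probe set gave 0.41 (adjusted p = 0.0496). Pdha1, its partner subunit (-0.90, adjusted p = 0.00059), and Dlat, another part of the complex (-1.17, adjusted p = 0.00075), fell under TET and are named after their values were seen. Pdp1, the phosphatase that reactivates that enzyme, rose 2.69-fold under TET (1.43, SE 0.13, adjusted p = 1.4e-05). Its next brightest probe set gave -0.47 (adjusted p = 0.15). Pdhx, a further part of the complex, fell under TMT (-0.57, adjusted p = 0.013), a call lost without saline replicate 2 (adjusted p = 0.056). Pdpr, of the same list, was lower under TET than under TMT (-1.09, adjusted p = 2.7e-05) or saline (-0.86, adjusted p = 0.00015).

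Of 14 measured regulators of glycolytic genes, 9 rose and 2 fell under TMT, with a median of 0.47, and 4 rose and 7 fell under TET, with a median of -0.34 (78.6% called under each). The list mixes genes that drive glycolytic genes with genes that oppose them, so its medians have no single direction. Hif1a, the oxygen-regulated subunit of hypoxia-inducible factor, gave 12.52, 12.41 and 12.55 under TMT, 11.49, 11.41 and 11.39 under TET, and 12.05, 12.10 and 12.12 in saline. TMT was highest and TET lowest, with no overlap, as for Slc2a1 and Slc16a3. Egln1, Vhl, Mlx and Nfe2l2 of this list had the same order without overlap. Vhl, Mlx and Nfe2l2 are named after their values were seen, and any link to the glycolytic genes was not tested. Hif1a rose 1.32-fold under TMT (0.40, SE 0.08, adjusted p = 0.0040) and fell 1.58-fold under TET (-0.66, SE 0.08, adjusted p = 9.5e-05). Without the probe sets that may bind several transcripts, its TMT difference was 0.53 (adjusted p = 0.052) and its TET difference -1.38.

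Egln1 and Egln3 encode the prolyl hydroxylases that mark hypoxia-inducible factor for destruction and are themselves its known targets. Egln1 rose under TMT (0.72, adjusted p = 0.00012) and fell 2.97-fold under TET (-1.57, adjusted p = 3.2e-07). Egln3 gave 10.33, 10.48 and 10.53 under TMT, 7.24, 7.33 and 6.00 under TET, and 6.68, 7.30 and 6.99 in saline. TET and saline overlapped, and the TMT arrays lay about 3 log2 units above both. Epas1, which encodes another oxygen-regulated subunit, fell 3.69-fold under TMT (-1.88, adjusted p = 1.8e-05; -1.10 with its next probe set), with a TET difference of 0.16.

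Myc, a growth regulator, went the other way from Hif1a. It gave 7.47, 7.46 and 7.06 under TMT, 9.49, 10.07 and 9.41 under TET, and 8.80, 8.66 and 8.65 in saline. TET was highest and TMT lowest, with no overlap. Myc fell 2.60-fold under TMT (-1.38, SE 0.18, adjusted p = 0.00020) and rose 1.93-fold under TET (0.95, SE 0.18, adjusted p = 0.0013). Mlxip, which encodes a glucose-sensing factor, fell 4.50-fold under TET (-2.17, adjusted p = 3.5e-06), with a TMT difference of -0.24. Txnip, which restrains glucose uptake, rose under TMT (0.53, adjusted p = 0.0035) and under TET (0.36, adjusted p = 0.017). With its next probe set the TET difference was 0.99. The TET call was lost with medians centred (0.25, adjusted p = 0.087) and without saline replicate 1 or 3 (adjusted p = 0.053 and 0.055). Bhlhe40, a repressor gene that responds to hypoxia and many other signals, rose 11.1-fold under TET (3.48, SE 0.12, adjusted p = 1.6e-08) and rose under TMT by 0.97.

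**Figure D4:**
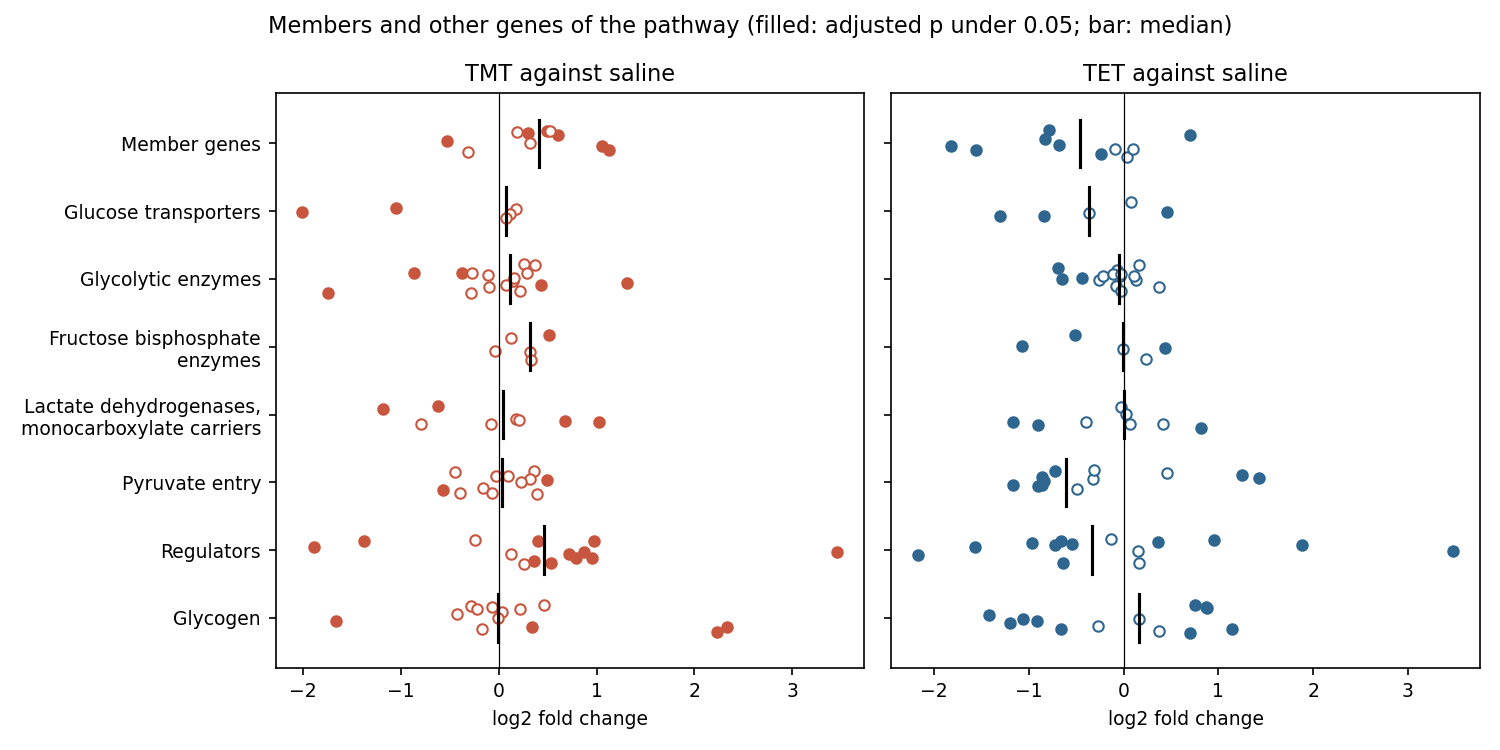
Log2 difference against saline (log2 units) of every measured gene of the pathway lists for TMT and for TET, with list medians. Regulators, a list that mixes activators with opposing genes such as Egln1 and Txnip, had a median of 0.47 under TMT and -0.34 under TET. Genes of pyruvate entry and pyruvate dehydrogenase had 0.03 and -0.61.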

How the data were processed

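Gene expression was measured on Affymetrix mouse arrays from amplified RNA of 9 samples, 3 each given TMT, TET or saline after LPS. The table holds the log2 values deposited by the authors for 45037 probe sets, made with RMA and affy per the submitters' processing notes. The sources used here do not give their versions or say whether all arrays were normalized together. The base of the logarithm was taken from the values, 2.05 to 14.8, and no value gives depth. Of the probe sets, 34945 named 1 gene, 932 several and 9160 none in the platform annotation; 204 gene identifiers were not in the RefSeq table (GRCm38.p6). The brightest probe set stood for a gene, which left 18193 genes.

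The tests used limma (3.58.1, R 4.3.3): 1 mean per group, all 9 arrays, 6 residual degrees of freedom, prior degrees of freedom 3.99, two-sided, Benjamini-Hochberg adjustment over 18193 genes. The procedure was tested on simulated data. Named were the 10 genes, up to 3 genes per pathway list and comparison with the smallest adjusted p among those that passed, Hif1a, Myc and Txnip, and the 2 nearest genes of each of the 10. The members and lists were chosen with earlier results of these data known. Alternatives left out each array in turn, centred array medians, applied quantile normalization again or cyclic loess, kept the brighter genes alone, took other probe sets, their mean or those not marked as binding several transcripts, used array weights, trended robust moderation, the 6 arrays compared or a replicate block, or tested against a 1.2-fold change. Listed pathway genes with no value were not analysed here.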

Additional observations from a re-analysis of the deposited data

How the results depend on the processing

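Over the 10 genes and 3 comparisons, 624 alternative values were computed; 568 kept direction and side of the threshold, 40 kept direction but no longer passed, 7 newly passed and 9 changed sign. For the other pathway genes the numbers were 1745, 1623, 78, 28 and 16. No change of sign in the 10 genes concerned a passed call. Pdk1 under TMT was -0.055 as a mean over probe sets and -0.25 with the next brightest probe set or without those that may bind several transcripts. Hk1 under TET was -0.069 with medians centred, -0.082 as a mean over probe sets and -0.21 with its other probe set. It ran from -0.0079 to 0.11 when 1 array was left out, below 0 without TET replicate 3. Pfkp under TET was -0.0052 with medians centred and ran from -0.037 to 0.22, below 0 without TET replicate 3. Under TET, quantile normalization gave Tpi1 0.0066, Aldoc 0.036, Aldoa 0.013 and Pkm 0.0022, and cyclic loess gave Tpi1 0.056, Aldoc 0.18 and Pkm 0.034. Pkm ran from -0.092 to 0.018 with 1 array left out, above 0 without TET replicate 1 (0.018) or saline replicate 1 (0.0063). With the mean over probe sets Pgk1 under TET was 0.058, and with the next brightest probe set Pgk1 was 0.12, Slc2a4 -0.015 and Pdp1 -0.47. With that probe set Phka2 under TMT was 0.38. Txnip, TET against TMT, was -0.17 as deposited, 0.091 as a mean and 0.35 with the next probe set. The cause was not tested.

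With array weights 8756 genes and 52 pathway genes passed under TMT, against 5049 and 29, and 9 of the 10 genes did. Against a 1.2-fold change 3 of the 10, 2760 of all and 19 pathway genes passed under TMT, 5143 of all under TET and 5374 between TET and TMT. Slc2a1 under TMT then had an adjusted p of 0.052. Among the brighter genes alone, where fewer genes were tested, 6066 passed under TET and 6270 between TET and TMT. Leaving out 1 array gave 4 to 7 of the 10 genes under TMT, 5 to 7 under TET and 10 between TET and TMT. For all genes it gave 3971 to 5522, 7540 to 9372 and 8006 to 9232, and for the pathway genes 24 to 33, 38 to 44 and 41 to 51. Whether replicate numbers pair the samples cannot be settled from deviations around means of 3 arrays. Deviations of same-numbered arrays correlated at -0.15 to 0.31 over 9 pairs, and other numbers at -0.30 to 0.26 over 18. With a replicate block 5, 6 and 10 of the 10 genes passed (TMT, TET, TET against TMT), with Ldha lost under TMT (adjusted p = 0.053) and Slc2a1 under TET (adjusted p = 0.054). The block left 4859, 8956 and 9119 of all genes and 29, 41 and 45 pathway genes. Dim probe sets, with no measured background, limit what low values can show.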

Other observations

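Glycogen is the store that takes up or releases glucose phosphate. Of 13 measured glycogen genes, 3 rose and 1 fell under TMT (30.8% called, against 27.8% of all genes), and 5 rose and 5 fell under TET (76.9%, against 50.8% of all genes), with medians of -0.01 and 0.16. Gys1, glycogen synthase, gave 9.45, 9.09 and 9.75 under TMT, 7.42, 7.38 and 7.28 under TET, and 7.23, 7.19 and 7.18 in saline. The TMT arrays lay far above both other groups. Gys1 rose 4.69-fold under TMT (2.23, SE 0.15, adjusted p = 2.3e-06), with a TET difference of 0.16 (adjusted p = 0.38). With its next brightest probe set the Gys1 rise under TMT was 0.82 (adjusted p = 0.013). Ppp1r3b, which encodes a subunit that brings phosphatase to glycogen and activates its synthesis, gave 9.98, 9.77 and 9.79 under TMT, 7.41, 7.85 and 8.42 under TET, and 7.29, 7.78 and 7.48 in saline. It rose 5.02-fold under TMT (2.33, SE 0.22, adjusted p = 2.7e-05), with a TET difference of 0.37 (adjusted p = 0.18). Between TET and TMT the Gys1 difference no longer passed with that probe set (-0.44, adjusted p = 0.099).

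Of the 4 glycogen genes called under TMT, Ugp2 and Phka2 were called in the same direction under TET, and neither Gys1 nor Ppp1r3b passed there. Ugp2, whose enzyme makes the sugar donor of glycogen, gave 0.34 under TMT (adjusted p = 0.032) and 0.70 under TET (adjusted p = 0.00029), and it is named after its values were seen. Gyg, the protein primer of glycogen, gave 10.71, 11.03 and 10.48 under TMT, 12.17, 12.13 and 12.21 under TET, and 10.88, 11.13 and 11.07 in saline. Every TET array lay above the others, by about 1 log2 unit or more. It rose 2.21-fold under TET (1.14, SE 0.13, adjusted p = 6.2e-05), with a TMT difference of -0.29 (adjusted p = 0.16). Pygb, a glycogen phosphorylase gene, fell 2.29-fold under TET (-1.19, SE 0.11, adjusted p = 1.0e-05), with a TMT difference of -0.07. Phka2, a phosphorylase kinase subunit, fell under both in its brightest probe set (-1.66 and -1.42), but with the next probe set the TMT value passed in the opposite direction (0.38, adjusted p = 0.019) and the TET value did not pass (-0.20, adjusted p = 0.14).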
